A study of Mus musculus with 12 samples.

Results

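The 10 genes described here, Pgk1, Slc2a1, Ldha, Pdk1, Ndrg1, Vegfa, Bnip3, Egln3, Adm and Car9, are genes of glycolysis and of the cellular response to low oxygen. They were listed by name, with earlier results of these data known, and are 10 of 22180 genes measured. Each was found on the array through the platform annotation: 6 of them had 1 transcript cluster (the set of probes that reads 1 transcript region), and Slc2a1, Pdk1, Ndrg1 and Car9 had 2. No cluster of theirs was shared with another gene, and a gene with 2 clusters was represented by its brighter one.

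The study measured total RNA of E14 mouse embryonic stem cells on Affymetrix whole-transcript arrays, with 12 arrays in 4 groups of 3. The groups were cells transduced with a short hairpin RNA against LOXL2 (shLOXL2) and treated with RA for 1 day, shLOXL2 cells without RA at day 0, cells transduced with a control hairpin (shCT) and treated with RA for 1 day, and shCT cells without RA at day 0. RA was read as retinoic acid, and LOXL2 is a lysyl oxidase family enzyme that is secreted and is also known to act on histone H3 in the nucleus. All 4 groups share the transduction, 1 construct stands for the knockdown, and no group had a day of culture without RA, so that RA and the day of culture cannot be told apart. The labels do not say if a group's 3 arrays are separate cultures, so the p-values measure the spread between these arrays, which may be technical. In these RNA samples of whole cultures, fewer cells of a type and less RNA per cell cannot be told apart.

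When oxygen is plentiful, prolyl hydroxylases of the Egln family mark the HIF-alpha proteins for destruction through Vhl, the von Hippel-Lindau ubiquitin ligase. When oxygen is scarce, HIF-alpha pairs with Arnt and binds promoters and enhancers at short motifs, which raises genes for glucose uptake, glycolysis, blood vessel growth and mitochondrial turnover. Mouse embryonic stem cells express much of the glycolytic pathway in ordinary culture too, and their metabolism shifts as they leave pluripotency.

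All 10 embryonic stem cell markers measured lay above the array median on all 12 arrays. So did all 7 primitive endoderm markers and 3 of 8 fibroblast markers, so this comparison of probes with the array median does not tell the cell types apart. The targeted gene was read by 2 clusters shared with the predicted gene Gm21451. One lay at 5.10 to 5.30 log2 units on the shLOXL2 RA arrays, 4.79 to 5.06 on the shLOXL2 no RA arrays, 5.85 to 6.51 on the shCT RA arrays and 5.17 to 5.71 on the shCT no RA arrays. Averaged over the RA states it stood in shLOXL2 at 60.0% of shCT (exact permutation p = 0.005, two-sided, the smallest that 400 relabellings can give), and the other cluster stood at 65.0% (exact permutation p = 0.03). The second cluster did not overlap with RA, at 4.64 to 5.06 on the shLOXL2 RA arrays, against 5.60 to 6.27 on the shCT RA arrays. Without RA its groups overlapped, at 4.58 to 5.03 in shLOXL2, against 4.58 to 5.27 in shCT.

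Of the 10 genes, 9 had at least 1 entry in the RefSeq promoter table for GRCm38.p6, and 12 windows of 250 bases before a transcription start were searched for ACGTG and GCGTG on both strands, the core letters of HIF-binding motifs. Of the 12 windows 10 (83.3%) held a match, against 38.6% of all 32851 windows of that length in the table. The windows without a match were 1 of the Pdk1 windows and the more upstream Vegfa window, so Vegfa had matches only at a start further downstream. Matches were not compared by gene, as no share over all genes was worked out. Both motifs contain CG, and the GC content of the 12 windows ran from 38.4% (a Pdk1 window) to 72.4% (Bnip3). It was not compared with that of all windows. A match inside the palindrome CACGTG was counted on both strands, and such overlaps were counted separately. By that count the Bnip3 window and 1 of the Ldha windows held 5 matches each, where 6.6% of all windows held 3 or more. The windows printed are those of the genes on which the results turn: Slc2a1, which rose with RA, Pdk1, which fell, Pgk1, whose shLOXL2 arrays lay below the shCT arrays in both RA states, and Bnip3, which set 1 pair of arrays apart from the rest. Capitals mark ACGTG or GCGTG on the printed strand, or their reverse complements CACGT and CACGC. Each runs 5′ to 3′ on the gene's strand up to the base before the start. The windows are chr4:119108495-119108744 (plus strand) for Slc2a1, chr2:71872974-71873223 (plus) for Pdk1, chrX:106186850-106187099 (plus) for Pgk1 and chr7:138909507-138909756 (minus) for Bnip3.
Slc2a1 promoter: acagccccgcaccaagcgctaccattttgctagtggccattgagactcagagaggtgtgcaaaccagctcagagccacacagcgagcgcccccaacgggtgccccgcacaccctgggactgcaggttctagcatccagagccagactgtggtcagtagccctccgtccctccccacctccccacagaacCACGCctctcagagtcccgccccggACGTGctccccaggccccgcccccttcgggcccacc
Pdk1 promoter: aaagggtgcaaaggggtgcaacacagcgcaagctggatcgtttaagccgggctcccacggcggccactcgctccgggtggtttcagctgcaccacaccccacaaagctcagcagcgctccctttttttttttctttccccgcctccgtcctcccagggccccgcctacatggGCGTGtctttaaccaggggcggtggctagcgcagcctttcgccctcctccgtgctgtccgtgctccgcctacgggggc
Pgk1 promoter: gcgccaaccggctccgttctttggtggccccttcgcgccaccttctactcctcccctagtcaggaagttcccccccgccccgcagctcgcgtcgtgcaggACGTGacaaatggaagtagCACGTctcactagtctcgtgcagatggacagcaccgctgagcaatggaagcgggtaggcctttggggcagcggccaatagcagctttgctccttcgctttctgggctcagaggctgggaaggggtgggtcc
Bnip3 promoter: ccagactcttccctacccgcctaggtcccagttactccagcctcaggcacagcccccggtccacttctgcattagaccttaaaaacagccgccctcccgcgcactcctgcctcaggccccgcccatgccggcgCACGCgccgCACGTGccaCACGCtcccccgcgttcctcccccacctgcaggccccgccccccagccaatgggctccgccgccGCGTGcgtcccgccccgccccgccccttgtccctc

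The Slc2a1 and Pgk1 windows held 2 matches each and the printed Pdk1 window 1, so that a gene that rose and a gene that fell with RA both carried these letters close to a start. Pdk1 has a second window in the table, chr2:71874654-71874903, which held 0 matches. Of the Vegfa windows, chr17:46032378-46032627 (minus) held 0 matches and chr17:46025164-46025413 (minus) held 2. A match describes the letters alone, and binding at these promoters was not measured here.

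Values below are the deposited log2 signals, on which a difference of 1 is a factor of 2. Probes differ in brightness, so changes were compared between arrays, and the array median served only to say which genes were dim. Of the 10 genes, 8 lay above the array median on all 12 arrays, Car9 on 11 and Adm on 2. Car9 and Adm were therefore dim, with ranges of 4.59 to 5.09 and 3.82 to 4.82 over all arrays beside array medians of 4.58 to 4.68.

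**Figure D1:**
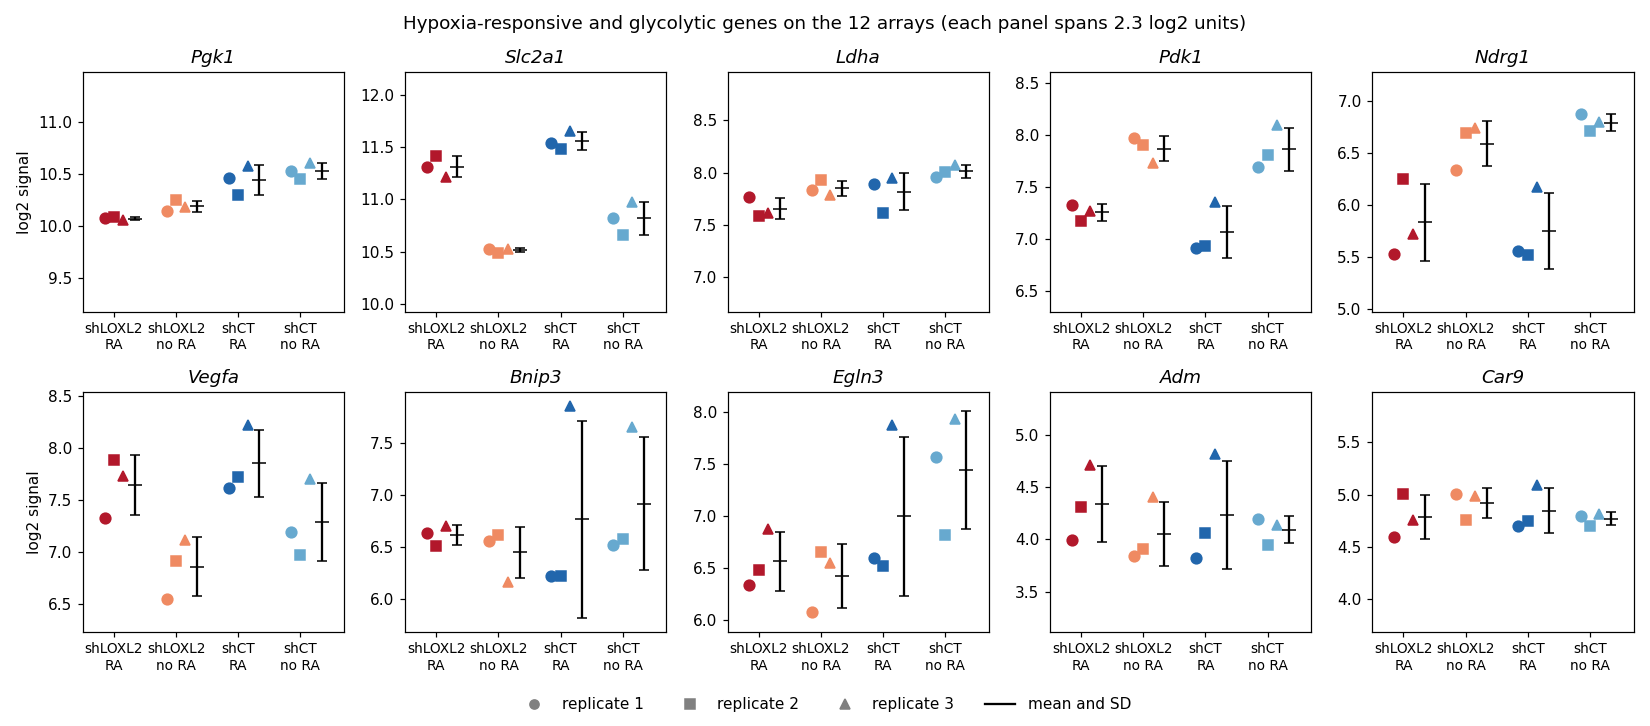
Log2 signal (vertical axis) of the 10 genes on each array, by group from left to right shLOXL2 RA, shLOXL2 no RA, shCT RA and shCT no RA, with marker shapes for the replicate number and a black bar for mean and SD (n = 3 each). Slc2a1 is high in both RA groups, Pdk1 and Ndrg1 are low in both, and the triangles (replicate 3) of Bnip3 and Egln3 stand above the other shCT arrays.

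With RA, 4 of the 10 genes changed when both constructs were averaged: Slc2a1 and Vegfa rose, and Pdk1 and Ndrg1 fell. By limma with Benjamini-Hochberg adjustment over all 22180 genes and a threshold of 0.05, 10.3% of all genes passed for RA on average, 5.52% higher and 4.80% lower. The median change was -0.06 log2 units over the 10 genes and -0.01 over all genes. The 10 genes thus moved in both directions, and their median lay near that of all genes. Markers of cell state moved with RA too. Of 10 embryonic stem cell markers 0 rose and 5 fell, among them Pou5f1 (-0.56 ± 0.08 log2 units, limma adjusted p = 4.31e-04), Utf1 (-0.70 ± 0.11, 9.17e-04) and Zfp42 (-0.51 ± 0.09, 0.00267). Of 7 primitive endoderm markers 2 rose, Gata6 (1.63 ± 0.17, 3.50e-05) and Pdgfra (0.94 ± 0.24, 0.0234, passed under 17 of 23 alternatives), and 0 fell. Of 8 fibroblast markers 1 rose, Pdgfrb (1.28 ± 0.11, 5.44e-06), and 0 fell. The mean of the embryonic stem cell markers was 8.77 to 8.91 log2 units on the shLOXL2 RA arrays, against 9.18 to 9.24 on the shLOXL2 no RA arrays, and 8.77 to 8.87 on the shCT RA arrays, against 9.06 to 9.31 on the shCT no RA arrays. That of the primitive endoderm markers was 6.52 to 6.61 on the shLOXL2 RA arrays, against 5.90 to 5.98 on the shLOXL2 no RA arrays, and 6.22 to 7.01 on the shCT RA arrays, against 5.76 to 6.84 on the shCT no RA arrays. The shCT groups thus overlapped for the primitive endoderm list. The part of these markers in the changes of the 10 genes was not tested.

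Slc2a1 encodes GLUT1, the glucose transporter of the plasma membrane. Its log2 signal was 11.31, 11.42 and 11.21 on the shLOXL2 RA arrays, against 10.52, 10.49 and 10.53 on the shLOXL2 no RA arrays. In shCT it was 11.54, 11.49 and 11.66 with RA, against 10.82, 10.66 and 10.98 without RA. Every RA array lay above every array without RA, in both constructs. Slc2a1 rose by 0.80 ± 0.12 log2 units in shLOXL2 (SE, limma adjusted p = 0.00169) and by 0.74 ± 0.12 in shCT (limma adjusted p = 0.00265), and stood at 171% of the level without RA on average. Its second, dimmer cluster (mean 5.60) changed by 0.27 ± 0.12 on average, which did not pass (limma adjusted p = 0.277).

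Pgk1, the phosphoglycerate kinase of glycolysis, did not pass for RA, with changes of -0.12 ± 0.11 log2 units in shLOXL2 and -0.08 ± 0.11 in shCT. Ldha, the lactate dehydrogenase subunit that turns pyruvate into lactate, had 7.77, 7.58 and 7.61 on the shLOXL2 RA arrays, against 7.84, 7.92 and 7.78 without RA. In shCT its values were 7.89, 7.61 and 7.94 with RA, against 7.96, 8.00 and 8.07 without RA. The RA arrays of Ldha lay below the no RA arrays within each construct, by 0.19 ± 0.09 on average, and the change did not pass over all genes (limma unadjusted p = 0.0423, adjusted p = 0.204).

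Pdk1 encodes a kinase that inhibits pyruvate dehydrogenase and so limits the entry of pyruvate into mitochondrial oxidation. Its log2 signal was 7.33, 7.17 and 7.27 on the shLOXL2 RA arrays, against 7.97, 7.90 and 7.73 on the shLOXL2 no RA arrays. In shCT it was 6.91, 6.93 and 7.35 with RA, against 7.69, 7.81 and 8.09 without RA. No RA array reached the lowest array without RA. Pdk1 fell by 0.61 ± 0.15 log2 units in shLOXL2 (limma adjusted p = 0.0407) and by 0.80 ± 0.15 in shCT (limma adjusted p = 0.00784), and stood on average at 61.4% of the level without RA. The shLOXL2 call did not pass without any 1 of the 6 shLOXL2 arrays, without replicate 2 of shCT no RA, or without replicate 1 or 2 of shCT RA, where the limma adjusted p ranged from 0.0525 to 0.144. Its second cluster (mean 3.21) changed by -0.50 ± 0.16 on average (limma adjusted p = 0.121).

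Ndrg1 encodes a cytoplasmic protein induced by low oxygen and by differentiation. Its log2 signal was 5.53, 6.25 and 5.73 on the shLOXL2 RA arrays, against 6.34, 6.69 and 6.74 on the shLOXL2 no RA arrays. In shCT it was 5.56, 5.52 and 6.17 with RA, against 6.87, 6.71 and 6.80 without RA. The RA arrays again lay below every array without RA, and replicate 2 of shLOXL2 with RA came nearest to them. Ndrg1 fell in shCT by 1.04 ± 0.21 log2 units (limma adjusted p = 0.0104). In shLOXL2 the change was -0.76 ± 0.21, which did not pass (limma adjusted p = 0.0668). Ndrg1 fell on average to 53.6% of the level without RA (limma adjusted p = 0.0012). The shCT call did not pass without replicate 1 (limma adjusted p = 0.0595) or replicate 2 (limma adjusted p = 0.0586) of shCT RA. Its second cluster (mean 4.33) changed by -0.21 ± 0.14 on average.

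Vegfa encodes the main growth factor of blood vessel formation. Its log2 signal was 7.33, 7.88 and 7.73 on the shLOXL2 RA arrays, against 6.55, 6.91 and 7.11 on the shLOXL2 no RA arrays. In shCT it was 7.61, 7.72 and 8.22 with RA, against 7.20, 6.97 and 7.70 without RA. The shLOXL2 groups did not overlap, whereas replicate 3 of shCT without RA reached into the shCT RA range. Averaged over the constructs Vegfa rose to 160% of the level without RA, by 0.67 ± 0.16 log2 units (limma adjusted p = 0.0145). Within a single construct it did not pass, with 0.79 ± 0.23 in shLOXL2 (limma adjusted p = 0.0821) and 0.56 ± 0.23 in shCT (limma adjusted p = 0.221).

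Counted by construct, 2 of the 10 genes passed for RA in shLOXL2 (Slc2a1 higher and Pdk1 lower), where 3.46% of all genes did (2.05% higher and 1.41% lower). In shCT 3 passed (Slc2a1 higher, Pdk1 and Ndrg1 lower), where 4.25% did (2.16% higher and 2.09% lower). The RA and no RA arrays of shLOXL2 did not overlap for 2 genes that were higher (10.3% of all genes) and 4 that were lower (9.32%), and those of shCT for 1 that was higher (10.7%) and 3 that were lower (10.5%). In shLOXL2 the replicate numbers went together across RA states, with correlations of same-numbered deviations of 0.558, 0.248 and 0.216, so the fit was repeated with number as a block within each construct. In that fit all 4 genes passed in shLOXL2, with limma adjusted p = 0.00169 for Slc2a1, 0.00797 for Pdk1, 0.0165 for Ndrg1 and 0.0033 for Vegfa. That fit was chosen after seeing the data, and 1624 of all 22180 genes passed in it, where 768 did in the main fit. With the number as 1 block over all arrays, Slc2a1 (limma adjusted p = 0.0063) and Vegfa (0.0294) passed in shLOXL2. Pdk1 (0.0641) and Ndrg1 (0.0814) did not. The difference between the RA responses of shLOXL2 and shCT passed for 0 of the 10 genes by limma, and for 0% of all genes, of which 1.11% were higher and 1.83% lower at an unadjusted p under 0.05. Its 95% confidence interval ran from -0.31 to 0.42 log2 units for Slc2a1, from -0.27 to 0.64 for Pdk1, from -0.34 to 0.92 for Ndrg1 and from -0.46 to 0.91 for Vegfa, so that differences of up to those sizes were not resolved.

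**Figure D2:**
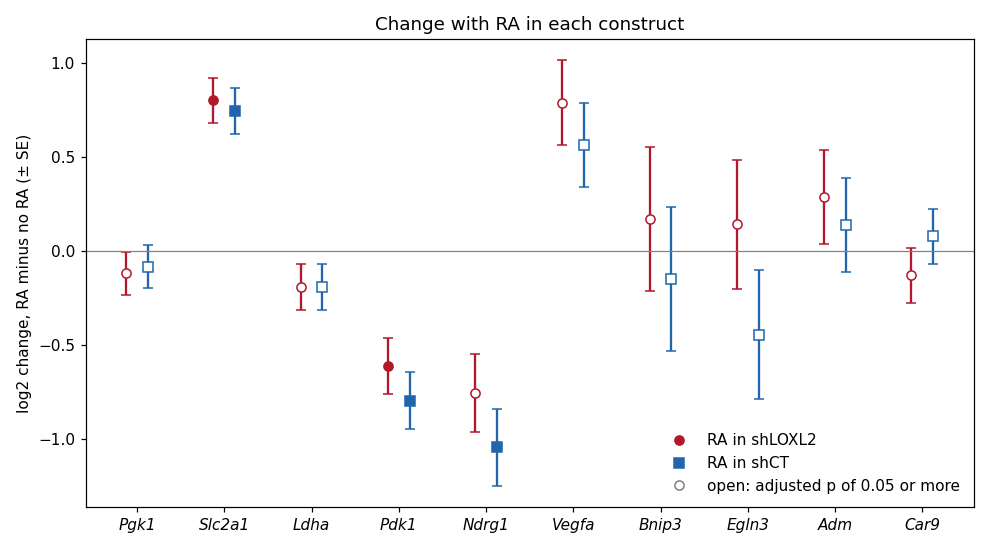
Log2 change with RA (vertical axis, RA minus no RA, ± SE of the limma fit, 3 arrays per group) of the 10 genes in shLOXL2 (circles) and shCT (squares), with filled symbols for a limma adjusted p under 0.05. Slc2a1 is filled above 0 and Pdk1 filled below 0 in both constructs, Ndrg1 is filled in shCT and open in shLOXL2, and Vegfa is open in both at 0.79 and 0.56.

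The remaining 4 genes did not pass for RA. Egln3 encodes an oxygen-dependent prolyl hydroxylase that acts on HIF-alpha, and its RA change was 0.14 ± 0.34 log2 units in shLOXL2 and -0.44 ± 0.34 in shCT. Bnip3, which encodes a mitochondrial outer membrane protein of mitophagy and cell death, changed by 0.17 ± 0.38 in shLOXL2 and -0.15 ± 0.38 in shCT. Adm, the precursor of the vessel-relaxing peptide adrenomedullin, changed by 0.29 ± 0.25 and 0.14 ± 0.25, and Car9, a carbonic anhydrase of the cell surface, by -0.13 ± 0.15 and 0.08 ± 0.15, in shLOXL2 and in shCT in that order. The errors of Egln3 and Bnip3 were the widest of the 10 genes, and their arrays are described with the knockdown.

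With LOXL2 knockdown, none of the 10 genes passed the test. For knockdown with RA and for knockdown without RA, 0 of the 10 genes and 0% of all genes passed by limma; for knockdown on average, 0 of the 10 and 0.0541% of all genes did (0.0361% higher and 0.0180% lower). Most of the 10 genes nonetheless lay lower in shLOXL2: 7 with RA, 8 without RA and 7 on average had a change below 0, where 48.5%, 48.3% and 49.2% of all genes did. At an unadjusted p under 0.05, 1 was lower with RA (Pgk1; 2.65% of all genes), 3 without RA (Pgk1, Slc2a1 and Egln3; 2.45%) and the same 3 on average (3.36%). None was higher, as 2.31% of all genes were with RA, 2.22% without RA and 3.35% on average. The arrays of shLOXL2 and shCT did not overlap for 2 of the 10 genes with RA and 4 without RA, all lower in shLOXL2, where 5.88% and 4.04% of all genes were lower without overlap and 6.61% and 4.20% higher.

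Pgk1 had 10.07, 10.08 and 10.06 log2 units on the shLOXL2 RA arrays, against 10.45, 10.29 and 10.57 on the shCT RA arrays. Without RA it had 10.14, 10.25 and 10.18 in shLOXL2, against 10.53, 10.45 and 10.60 in shCT. Every shLOXL2 array lay below every shCT array. The difference was -0.37 ± 0.11 with RA and -0.34 ± 0.11 without RA, and on average Pgk1 stood in shLOXL2 at 78.3% of shCT (limma unadjusted p = 6.62e-04, adjusted p = 0.207). Over all alternatives of the processing its difference on average ranged from -0.39 to -0.29, with adjusted p from 0.0616 to 0.604.

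Slc2a1 showed the same separation, and the values given with its RA response place each shLOXL2 group below the shCT group of the same RA state. The difference was -0.25 ± 0.12 log2 units with RA and -0.31 ± 0.12 without RA, or 82.5% of shCT on average (limma unadjusted p = 0.00576, adjusted p = 0.413). Pgk1 and Slc2a1 were 2 of the 10 genes whose groups did not overlap and were lower in shLOXL2 in both RA states, which 0.681% of all genes showed.

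Egln3 had 6.33, 6.48 and 6.88 log2 units on the shLOXL2 RA arrays, against 6.59, 6.51 and 7.87 on the shCT RA arrays. Without RA it had 6.07, 6.65 and 6.55 in shLOXL2, against 7.57, 6.82 and 7.93 in shCT. The groups overlapped with RA and did not overlap without it. The difference was -0.43 ± 0.34 with RA and -1.02 ± 0.34 without RA, and on average Egln3 stood in shLOXL2 at 60.6% of shCT (limma unadjusted p = 0.0102, adjusted p = 0.488). Much of that size came with 2 arrays: without replicate 3 of both shCT groups the difference on average was -0.38 ± 0.17 (adjusted p = 0.538, over all alternatives 0.308 to 0.967).

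Bnip3 had 6.64, 6.52 and 6.70 log2 units on the shLOXL2 RA arrays, against 6.22, 6.22 and 7.86 on the shCT RA arrays. Without RA it had 6.56, 6.62 and 6.17 in shLOXL2, against 6.52, 6.58 and 7.65 in shCT. Replicate 3 of shCT stood more than 1 log2 unit above the other two arrays of its group in both RA states, and the remaining shCT arrays lay within or below the shLOXL2 range. The difference was -0.15 ± 0.38 with RA, where it turned to 0.40 ± 0.16 without the 2 replicate 3 arrays, and -0.47 ± 0.38 without RA, where it became -0.10 ± 0.16.

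Of the other members, Ldha lay at 89.4% of shCT on average in shLOXL2, and its groups did not overlap without RA (-0.16 ± 0.12 log2 units). Vegfa had -0.20 ± 0.23 with RA and -0.43 ± 0.23 without RA, or 80.2% of shCT on average (limma adjusted p = 0.774). Pdk1, Ndrg1, Adm and Car9 had averages of 0.10 ± 0.11, -0.06 ± 0.15, 0.03 ± 0.17 and 0.05 ± 0.10, each close to or within its standard error.

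The median knockdown difference of the 10 genes was -0.16 log2 units with RA, -0.25 without RA and -0.22 on average, beside an all-gene median of 0.01 with RA, 0.01 without RA and 0.00 on average. Without the 2 replicate 3 arrays of shCT the members' medians were 0.04 with RA, -0.16 without RA and -0.03 on average, with 4, 8 and 5 of the 10 genes below 0. The shift of the median with RA and on average was thus smaller without those 2 arrays. They were singled out because the members were high on them, so leaving them out had to move the differences up. At a limma unadjusted p under 0.05, 3 of the 10 genes were lower on average without the 2 arrays, beside 1042 of all 22180 genes. Pgk1 and Slc2a1 had differences on average of -0.30 ± 0.09 (limma adjusted p = 0.34) and -0.21 ± 0.09 (adjusted p = 0.515) without the 2 arrays.

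**Figure D3:**
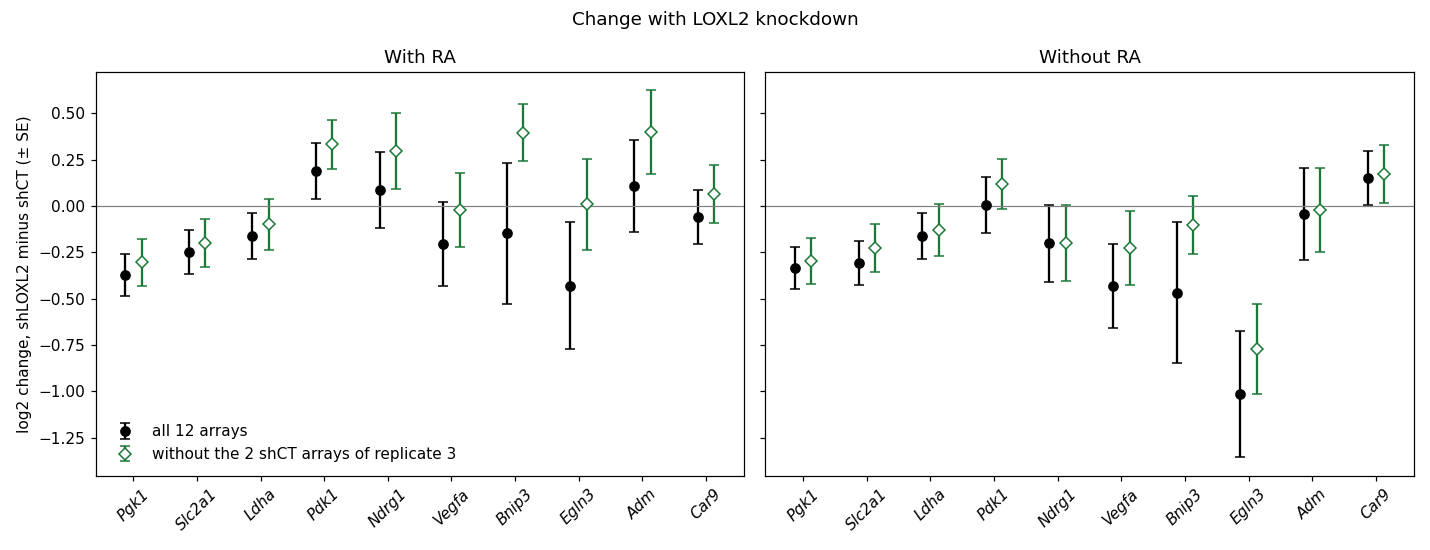
Log2 change with knockdown (vertical axis, shLOXL2 minus shCT, ± SE of the limma fit) of the 10 genes with RA (left) and without RA (right), over all 12 arrays (black) and without the 2 shCT arrays of replicate 3 (green diamonds). Pgk1 and Slc2a1 stay below 0 in both panels, while Bnip3 with RA is -0.15 over all arrays and 0.40 without those 2.

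Replicate 3 of shCT was the highest array of its group in both RA states for 8 of the 10 genes (all but Ndrg1 and Adm), as it was for 19.6% of all genes. Replicates 1 and 2 of shCT were the highest in both RA states for 0 of the 10 genes each, beside 20.7% and 9.25% of all genes. Replicates 1, 2 and 3 of shLOXL2 were the highest for 1 of the 10 genes each, beside 19.8%, 10.9% and 13.4% of all genes. Against the mean of the other two arrays, replicate 3 stood higher by 1.63 log2 units with RA and 1.10 without RA for Bnip3. The same gaps were 1.32 and 0.73 for Egln3, 0.55 and 0.62 for Vegfa, and 0.43 and 0.34 for Pdk1. The median gap of the 10 genes was 0.49 with RA and 0.17 without RA, beside -0.03 and -0.07 over all genes.

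Replicate 3 was the highest in both shCT groups for 5 of 17 other hypoxia-induced genes and 4 of 18 other glycolysis genes, beside 19.6% of all genes, and nothing is read from these counts. Median gaps with and without RA were 0.26 and 0.14 for these hypoxia-induced genes and 0.16 and 0.01 for these glycolysis genes, beside -0.03 and -0.07 over all genes. The 5 hypoxia-induced genes were Ero1a (1.05 and 0.96), Bhlhe40 (0.94 and 0.86), Plod2 (0.83 and 0.88), Tfrc (0.83 and 0.84) and Fam162a (0.516 and 0.335). Cell type markers also differed between the shCT arrays. The mean of the 7 primitive endoderm markers was 7.01, 6.57 and 6.22 on replicates 1, 2 and 3 of shCT RA, and 6.84, 5.95 and 5.76 on those of shCT without RA. Replicate 1 was the highest and replicate 3 the lowest for all 7 markers in both groups. Median gaps to the other two arrays were 0.61 with RA and 0.89 without RA for replicate 1, and -0.54 and -0.63 for replicate 3. In each group the larger gap was that of replicate 1. The mean of the 10 embryonic stem cell markers on replicate 3 was 8.87 with RA, level with replicate 2 (8.87), and 9.31 without RA, the highest of its group. Replicate 3 was the highest for 4 of these markers and the lowest for 3 with RA, and for 5 and 0 without RA. The mean of the 8 fibroblast markers on replicate 3 was 4.56 with RA (range 4.50 to 4.68) and 4.30 without RA, the lowest of its group. The part of these differences in the members' values was not tested. The labels name no batch.

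**Figure D4:**
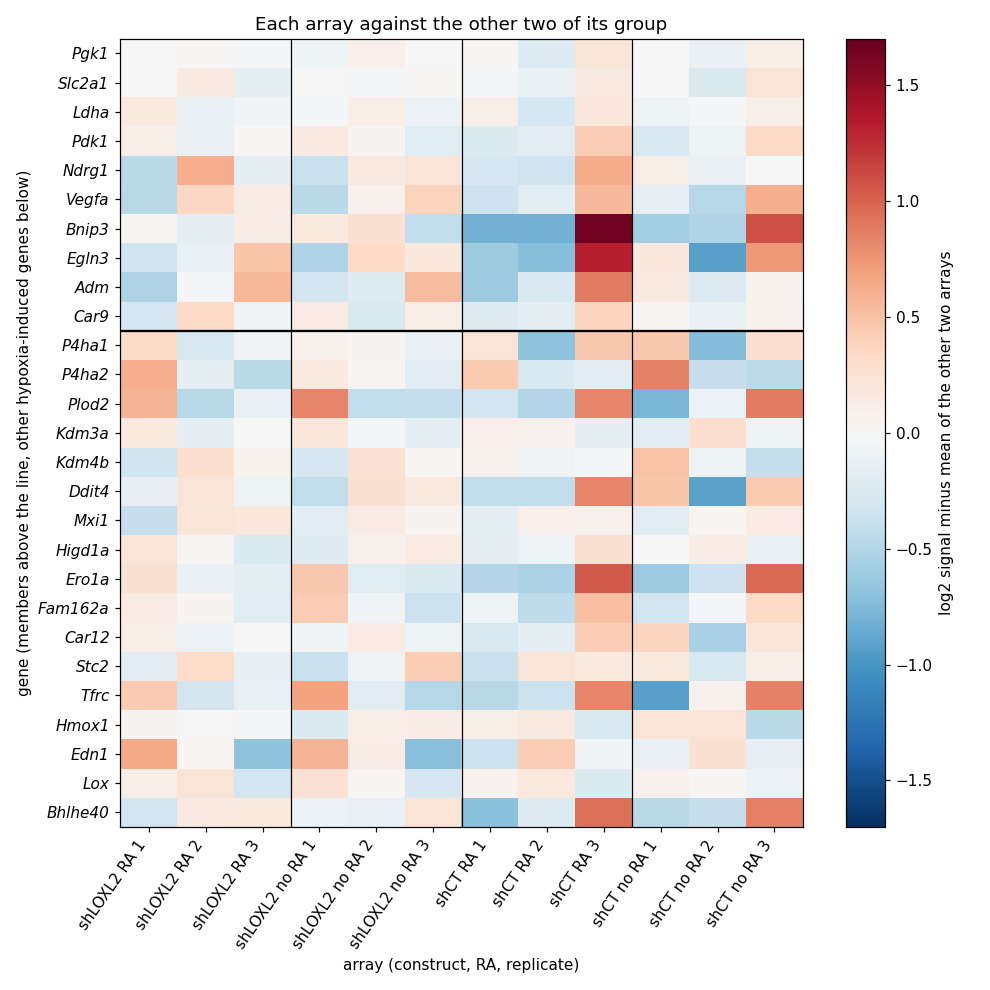
Log2 signal of each array minus the mean of the other two arrays of its group (colour, red higher and blue lower) for the 10 genes (above the line) and 17 other hypoxia-induced genes (below it), with arrays in columns by group. The 2 shCT columns of replicate 3 are the reddest over the 10 genes, with Bnip3 at 1.63 and 1.10.

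The 4 calls for RA on average did not turn on those 2 arrays. Without them Slc2a1 rose by 0.79 ± 0.09 log2 units on average (limma adjusted p = 2.71e-04) and Vegfa by 0.69 ± 0.14 (adjusted p = 0.0113), while Pdk1 fell by 0.72 ± 0.09 (adjusted p = 6.31e-04) and Ndrg1 fell too (adjusted p = 0.0012). Over all alternatives for RA on average the adjusted p stayed at or below 0.00121 for Slc2a1, 0.0034 for Pdk1, 0.00974 for Ndrg1 and 0.0461 for Vegfa.

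Other genes of the pathways were read from fixed lists. Of 18 further glycolysis genes 0 rose and 4 fell with RA on average, with a list median of -0.15 log2 units beside -0.01 over all genes. They were Pfkp (-0.75 ± 0.16, limma adjusted p = 0.00734) and Pfkm (-0.46 ± 0.10, adjusted p = 0.0102), subunits of phosphofructokinase, Hk2 (-0.40 ± 0.10, adjusted p = 0.0151), a hexokinase, and Slc16a1 (-0.30 ± 0.08, adjusted p = 0.0293), a lactate transporter that was singled out after its value was seen. Pfkp had 8.21, 8.82 and 8.68 on the shLOXL2 RA arrays, against 9.16, 9.51 and 9.61 without RA, and 8.76, 8.52 and 9.25 on the shCT RA arrays, against 9.57, 9.14 and 9.78 without RA. Pfkp, Pfkm and Hk2 passed under all 23 alternatives and Slc16a1 under 11 (adjusted p up to 0.0768).

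Of 9 genes of oxygen sensing, 1 rose and 1 fell with RA on average. Epas1, which encodes HIF-2-alpha, had 6.61, 6.71 and 6.68 log2 units on the shLOXL2 RA arrays, against 7.53, 7.58 and 7.51 without RA. In shCT it had 6.31, 6.42 and 5.85 with RA, against 6.93, 6.96 and 6.52 without RA. It fell by 0.74 ± 0.11 on average (limma adjusted p = 7.32e-04). Arnt2, a partner of HIF-alpha related to Arnt, rose by 0.37 ± 0.09 (adjusted p = 0.0204, and up to 0.0733 under alternatives, 18 of 23 of which it passed). Egln1, the main prolyl hydroxylase of HIF-alpha, was 0.44 ± 0.13 (adjusted p = 0.0506), Hif1a 0.25 ± 0.17 (adjusted p = 0.442), Vhl 0.10 ± 0.10 and Arnt 0.03 ± 0.09, none of which passed.

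Of 17 other hypoxia-induced genes, 4 rose and 2 fell with RA on average, with a list median of 0.27. Bhlhe40, a transcriptional repressor, rose by 1.02 ± 0.19 log2 units (limma adjusted p = 0.00315) and Edn1, the vessel-constricting peptide endothelin-1, by 0.79 ± 0.17 (adjusted p = 0.00821), while the secreted glycoprotein gene Stc2 fell by 0.74 ± 0.12 (adjusted p = 0.00107). The others, singled out after their values were seen, were P4ha1, a collagen prolyl hydroxylase (0.54 ± 0.16, adjusted p = 0.0443), Kdm3a, a histone demethylase (0.30 ± 0.09, adjusted p = 0.0496), and Hmox1, a haem oxygenase (-0.42 ± 0.10, adjusted p = 0.0173). P4ha1 passed under 10 and Kdm3a under 8 of 23 alternatives (adjusted p up to 0.157 and 0.152), and Hmox1 under 21. The genes that passed thus went both ways, as did those of the 10 members, where 5.52% of all genes passed higher and 4.80% lower. The list as a whole leaned up, with 13 of 17 above 0, beside 4 of the 10 members and 10750 of all 22180 genes.

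Among 17 partners and paralogs of the members, Nrp1, a co-receptor for Vegfa, rose by 0.49 ± 0.12 log2 units with RA on average (limma adjusted p = 0.0161), and Car2, a cytosolic carbonic anhydrase, by 0.43 ± 0.12 (adjusted p = 0.0377). Vegfc, a growth factor of lymphatic vessels, fell by 0.50 ± 0.09 (adjusted p = 0.00373). Car2 passed under 12 of 23 alternatives (adjusted p up to 0.0966). Of 10 other genes of pyruvate fate 0 passed with RA on average, and of 13 genes of the ATF4 and endoplasmic reticulum stress response only Trib3, a pseudokinase, passed (-0.58 ± 0.17, adjusted p = 0.0411), under 11 of 23 alternatives (adjusted p up to 0.111).

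For knockdown on average, 1 gene of these lists passed. Mpc1, part of the carrier that brings pyruvate into mitochondria, had 8.87, 9.35 and 9.58 log2 units on the shLOXL2 RA arrays, against 8.00, 8.07 and 8.24 on the shCT RA arrays. Without RA it had 8.44, 8.73 and 8.92 in shLOXL2, against 7.40, 8.07 and 7.92 in shCT. It rose by 1.03 ± 0.15 on average (limma adjusted p = 0.0172) and its groups did not overlap in either RA state. The size of the change depended on the processing, from 0.57 to 1.26 log2 units over 22 alternatives. The call was lost under 10 of these alternatives. These were the random replicate block (adjusted p = 0.0574), all clusters (0.109), removal of the replicate 3 arrays of shCT (0.113), and removal of any 1 array of shCT RA, of replicate 2 or 3 of shLOXL2 RA, or of replicate 2 or 3 of shLOXL2 without RA (0.0505 to 0.0855).

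Other hypoxia-induced genes had a median knockdown difference of -0.18 log2 units on average, with 13 of 17 below 0 and 0 passing, where 49.2% of all genes lay below 0. Without the replicate 3 arrays of shCT the median was -0.14, with 11 of 17 below 0, beside 11746 of all 22180 genes. Fam162a, a mitochondrial protein gene induced by low oxygen, had 8.05, 7.98 and 7.83 on the shLOXL2 RA arrays, against 8.50, 8.28 and 8.90 on the shCT RA arrays, and 8.01, 7.69 and 7.48 without RA in shLOXL2, against 8.39, 8.57 and 8.81 in shCT. Its difference was -0.73 ± 0.13 (limma adjusted p = 0.0781), and -0.59 ± 0.12 without the replicate 3 arrays of shCT (adjusted p = 0.183). Ddit4, an inhibitor of mTOR signalling, had -0.72 ± 0.18 (adjusted p = 0.284) and Bhlhe40 -0.64 ± 0.19 (adjusted p = 0.394). In the opposite direction Epas1 had 0.60 ± 0.11 (adjusted p = 0.0916). Among glycolysis genes the smallest p-values belonged to Pfkl (-0.34 ± 0.11, adjusted p = 0.497) and Tpi1 (-0.29 ± 0.10, adjusted p = 0.546), and 12 of 18 lay below 0, with a median of -0.08. Without the replicate 3 arrays of shCT 9 of 18 did, with a median of 0.0005.

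**Figure D5:**
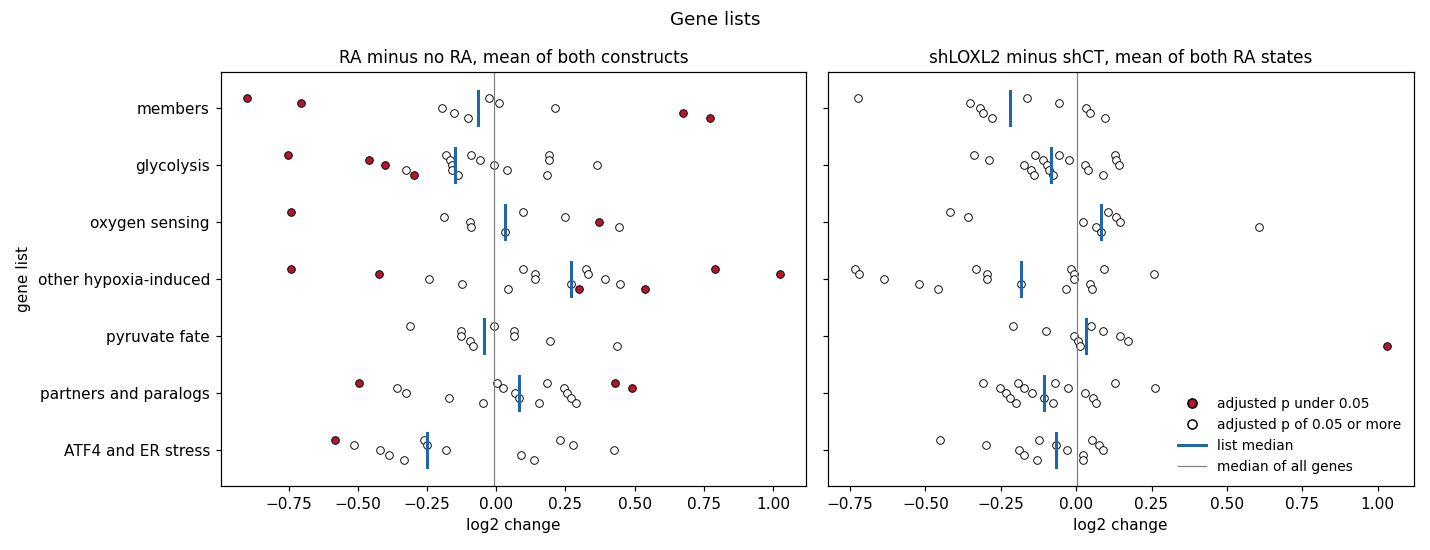
Log2 change (horizontal axis) of each gene by list (rows) for RA minus no RA (left) and shLOXL2 minus shCT (right), each averaged over the other factor, with red circles for a limma adjusted p under 0.05, open circles otherwise, a blue bar for the list median and a grey line for the median of all genes. The members spread to both sides with RA (median -0.06) and lie mostly below 0 with knockdown (median -0.22), where the lone red circle is Mpc1 at 1.03.

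The genes whose profile was most like the mean of the members' standardised values, among 10284 protein-coding genes of above-median signal, were AW551984, Cryzl1, Cryz, Ralb and Ank3. Their Pearson correlations with that mean over the 12 arrays were 0.896, 0.848, 0.822, 0.821 and 0.818 in that order, and after removal of the group means 0.855, 0.861, 0.782, 0.769 and 0.855. The points share arrays and 4 groups, and the mean of the members was highest on replicate 3 of shCT with RA (1.21) and of shCT without RA (0.92). None of these 5 genes passed for RA or for knockdown on average.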

How the data were processed

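Per the labels' protocols, Trizol-extracted RNA of 12 samples went through an Affymetrix whole-transcript labelling assay. The authors deposited a log2 signal for each transcript cluster and array. The submitters' processing notes name RMA, R 3.1.1 and limma but not what each did, and scanner files were not used here. Array medians of 4.58 to 4.68 are near equal, so a change common to most genes would not show. Arrays carry no counts, and their number limits the precision.

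Groups were taken from the labels. The 41345 clusters divided into 23521 with 1 gene, 1814 with more and 16010 without a name here, and 23328 were matched to the RefSeq gene table. The brightest cluster stood for a gene, which gave 22180 genes with no filter on dim values. Differences were fitted with limma 3.58.1 (statmod 1.5.0) in R 4.3.3 over all 12 arrays, with 1 mean per group. Knockdown differences are shLOXL2 minus shCT and RA differences RA minus no RA. P-values were adjusted by Benjamini-Hochberg over all genes, and errors are standard errors of the fit. The fit was run on simulated data with independent noise for each gene and array. In the real arrays 49.4% of the variance within groups lay on 1 axis, so the simulation does not check the p-values for arrays that deviate together. The 10 genes, the lists and the tests were chosen with earlier results of these data known. Genes named from the lists were those with the 3 smallest p-values per list for RA and for knockdown on average, with a few named always (Hif1a, Epas1, Arnt, Vhl, Egln1, Mpc1 and Loxl2). Same-numbered arrays deviated together across RA states in shLOXL2, with a correlation over 0.1 for every pair, while in shCT 1 of 3 pairs (0.039) fell below it. Between constructs only replicate 2 of the RA groups (0.197) lay above 0.1, and the other correlations ran from -0.550 to 0.042. The alternatives were replicate blocks, variance moderation, a filter on dim genes, normalization, the choice of cluster, the groups in the fit and leaving out arrays. Gpi1, Aldoa, Eno1, Ankrd37, Bnip3l, Mpc2 and Car14 of the lists were not analysed here. Promoter windows are from RefSeq on GRCm38.p6, and Ndrg1 had no entry.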

Additional observations from a re-analysis of the deposited data

How the results depend on the processing

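Of 212 values of called changes of the 10 genes under alternatives, 198 kept direction and call, 14 lost the call and 0 changed direction. Of 1394 values of uncalled changes, 14 passed and 84 changed sign without passing. The number of the 10 genes called for RA in shLOXL2 was 2. It was 4 with a random replicate block for each construct and number (consensus correlation 0.323), and 4 with a fixed replicate block, which was chosen after seeing the data. It was 1 with the mean of a gene's clusters, 1 with all clusters, 4 without the replicate 3 arrays of shCT (also chosen after seeing the data), and 1 to 3 when single arrays were left out. The fixed block also brought Vegfa past the threshold in shCT (adjusted p = 0.0179, over all alternatives 0.0179 to 0.559), where same-numbered arrays had correlations of 0.363, 0.039 and 0.631, of which 1 lay below the 0.1 required of every pair. With the number as 1 block over all arrays, Pdk1 in shLOXL2 was lost (adjusted p = 0.0641) and Vegfa gained (0.0294). The counts of the 10 genes called for knockdown and for the difference of RA responses stayed at 0 under every alternative run, and that for RA on average at 4.

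Counts over all genes moved more. For RA in shLOXL2 768 genes became 1675 with the random and 1624 with the fixed block, and 444 to 916 with single arrays left out. For RA in shCT 943 became 2047, 1800, and 483 to 1049, with 599 in a fit of the groups compared and 441 without the replicate 3 arrays. For RA on average 2289 became 3871 and 3677. For knockdown on average 12 became 0 with the random block, 1 with the number as a block over all arrays, 22 with a variance trend, 27 without dim genes, 1 with all clusters, 0 to 19 with single arrays left out, 0 without the replicate 3 arrays and 37 without the 4 arrays highest on the main axis of variation within groups. Centring arrays on their medians shifted the median of all genes by RA to -0.10 in shCT, and the share of calls that were higher was 27.9% in place of 50.9% there, 47.1% in place of 59.2% in shLOXL2, 32.9% in place of 53.5% on average and 71.4% in place of 66.7% for knockdown on average. A further quantile normalization gave 43.8% for knockdown on average. The causes were not tested. The background of the arrays is not known here, so how far the dim signals of Adm and Car9 stood above it could not be judged.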
